A study of Homo sapiens with 6 samples.

Results

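The nuclear hormone receptors are a family of transcription factors, and 46 of their genes were followed here by name: each was matched by its current symbol to 1 Ensembl identifier among the 58721 genes of the count table. RNA was sequenced from A375, an established human melanoma line that carries mutant BRAF, in 3 libraries with a guide RNA against mCherry (control, genotype WT in the labels) and 3 with a guide RNA against SOX10 (knockout). All 6 libraries came from this line, purchased from ATCC and grown in DMEM with 10% FBS, and total RNA was prepared as polyadenylated, strand-marked libraries. Both groups therefore carried a guide, and mCherry is a fluorescent protein gene that the human genome lacks. The sources used here do not say whether a clone or a mixed population was sequenced, or whether replicates came from separate cultures; a p-value therefore reflects the variation among the libraries at hand, possibly technical. In bulk RNA, fewer cells with a transcript and less of it per cell cannot be told apart.

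Libraries held 70075002 to 78148565 counts, and 3 counts, taken as the detection floor, corresponded to at most 0.0417 CPM (the usual depth-scaled count unit, here with TMM-scaled library sizes). SOX10, the targeted gene, stood at 241, 237 and 223 CPM in control replicates 1, 2 and 3 and at 47.2, 47.8 and 41.5 CPM in knockout replicates 1, 2 and 3, a log2 fold change of -2.36 (edgeR quasi-likelihood test, adjusted p = 1.84e-07). The groups did not overlap; the exact two-sided permutation p was 0.1, which is as low as this design can go. SOX10 transcript thus remained in the knockout libraries. Of 10 melanocyte lineage markers, MITF and SOX10 were abundant in control libraries, while PMEL, MLANA, TYR, TYRP1 and DCT averaged between 0.00463 and 1.62 CPM there, so that most pigment markers of the labelled lineage were near 0 in this line. Over the whole list, which includes SOX10, 2 of 9 tested markers rose and 5 fell at an adjusted p under 0.05. Over all genes tested, 14.0% passed in each direction. The summed level of the markers was 326 to 338 CPM in the controls and 181 to 192 CPM after knockout. Within the control group the library of replicate 3 was the lowest for 22 of 37 tested receptors, and within the knockout group that of replicate 3 was the lowest for 20; the 2 libraries carry the same number in the labels.

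Most nuclear receptors share a zinc finger domain that binds DNA and a ligand-binding domain that exchanges corepressors for coactivators when a hormone, vitamin derivative or lipid enters it. The retinoid X receptors, RXRA, RXRB and RXRG, are the common partners of the receptors for retinoic acid, thyroid hormone, vitamin D, oxysterols and fatty acids, whereas steroid receptors bind DNA as pairs of themselves and several orphan receptors act as monomers. Retinoic acid and vitamin D are known to restrain growth of cultured melanoma cells, and COUP-TF and NR4A receptors are known from neural crest and melanocyte biology.

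The retinoid receptors hold the largest change of the family, and the sequences before the RefSeq start sites of the 3 that fell are shown to place their genes and the letters these receptors read. Each is the 250 bases upstream of a start, 5′ to 3′ on the strand of the gene, from the RefSeq table for GRCh38.p14 (the same chromosomes as hg38, the build named for the counts). RXRG has 1 such window, chr1:165445127-165445376 on the minus strand, where capitals mark TGACCT, the reverse complement of the receptor hexamer AGGTCA, beginning at position -231 from the start. RARB has 4 windows, of which chr3:25428013-25428262 on the plus strand is shown because its capitals mark GTTCA, 6 further bases and GTTCA again, the long-known retinoic acid response element of this promoter, at position -52. RARG has 1 window, chr12:53232210-53232459 on the minus strand, without a match to the motifs searched.
RXRG: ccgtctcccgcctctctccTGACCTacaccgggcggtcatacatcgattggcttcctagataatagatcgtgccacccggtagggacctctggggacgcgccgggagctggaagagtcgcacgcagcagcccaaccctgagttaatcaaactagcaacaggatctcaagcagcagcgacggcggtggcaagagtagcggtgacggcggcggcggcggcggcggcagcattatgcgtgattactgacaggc
RARB: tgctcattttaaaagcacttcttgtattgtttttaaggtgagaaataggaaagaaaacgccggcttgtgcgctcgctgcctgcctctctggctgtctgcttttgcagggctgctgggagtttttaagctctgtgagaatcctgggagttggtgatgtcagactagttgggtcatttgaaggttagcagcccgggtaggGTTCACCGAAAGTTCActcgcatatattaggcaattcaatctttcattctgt
RARG: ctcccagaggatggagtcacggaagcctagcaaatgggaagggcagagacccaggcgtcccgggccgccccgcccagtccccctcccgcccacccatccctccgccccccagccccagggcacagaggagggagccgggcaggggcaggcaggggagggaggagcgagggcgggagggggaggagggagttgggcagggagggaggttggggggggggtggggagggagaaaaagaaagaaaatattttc

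Windows were found for 41 of the 46 receptor genes, 96 windows in all, and not for HNF4G, NR2F6, VDR, NR4A2 and NR0B2. Searched on both strands, AGGTCA stood in 15 of the 96 windows (15.6%) and in 12.1% of all 35116 windows of the table. The SOX core letters ACAATG or ACAAAG stood in 18 windows (18.8%) against 21.2% of all windows. Another RARB window, chr3:25458060-25458309, held 3 such matches and counts once. A further RARB window, chr3:25340552-25340801, held ACAAAG at -178 and AGGTCA at -52. Windows of 1 gene can overlap, as in ESR2 and PPARG, so that the same site can be counted in more than 1 window. The spaced repeat of GTTCA, added after the sequences were seen, stood in 1 receptor window and in 0.0484% of all. None of the 3 patterns overlapped another in the windows printed, a match describes letters and not a bound site, and start sites in use in A375 were not measured.

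Of the 46 receptor genes, 37 had enough counts to be tested, 12 were higher and 9 lower in knockout libraries (edgeR, p adjusted by Benjamini-Hochberg, threshold 0.05) and 16 did not pass. Over all 19263 genes tested, 28.0% passed, 14.0% higher and 14.0% lower; the median log2 fold change was 0.11 for the receptors and -0.02 for all genes. Receptors were chosen with earlier results of these data known, so their larger share is a description. Of the 12 higher receptors, 3 (NR2E3, ESR1 and NR0B1) reached the filter on low counts only through the knockout libraries, and 9 did not depend on it in this way. NR2E3 and ESR1 thus had to differ to be tested. NR0B1 had 9, 17 and 12 control reads, close to the filter, so this holds less strictly for NR0B1. Among the 21 receptors that passed, 6 were at least 2-fold higher (6.10% of all genes), 3 of them NR2E3, ESR1 and NR0B1, and 4 at least 2-fold lower (4.72% of all genes). Knockout and control libraries did not overlap for 24 of the 37 receptors, against 41.6% of all genes. By level, 24 receptors averaged at least 5 CPM over the 6 libraries, 7 between 1 and 5 CPM and 15 under 1 CPM.

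**Figure D1:**
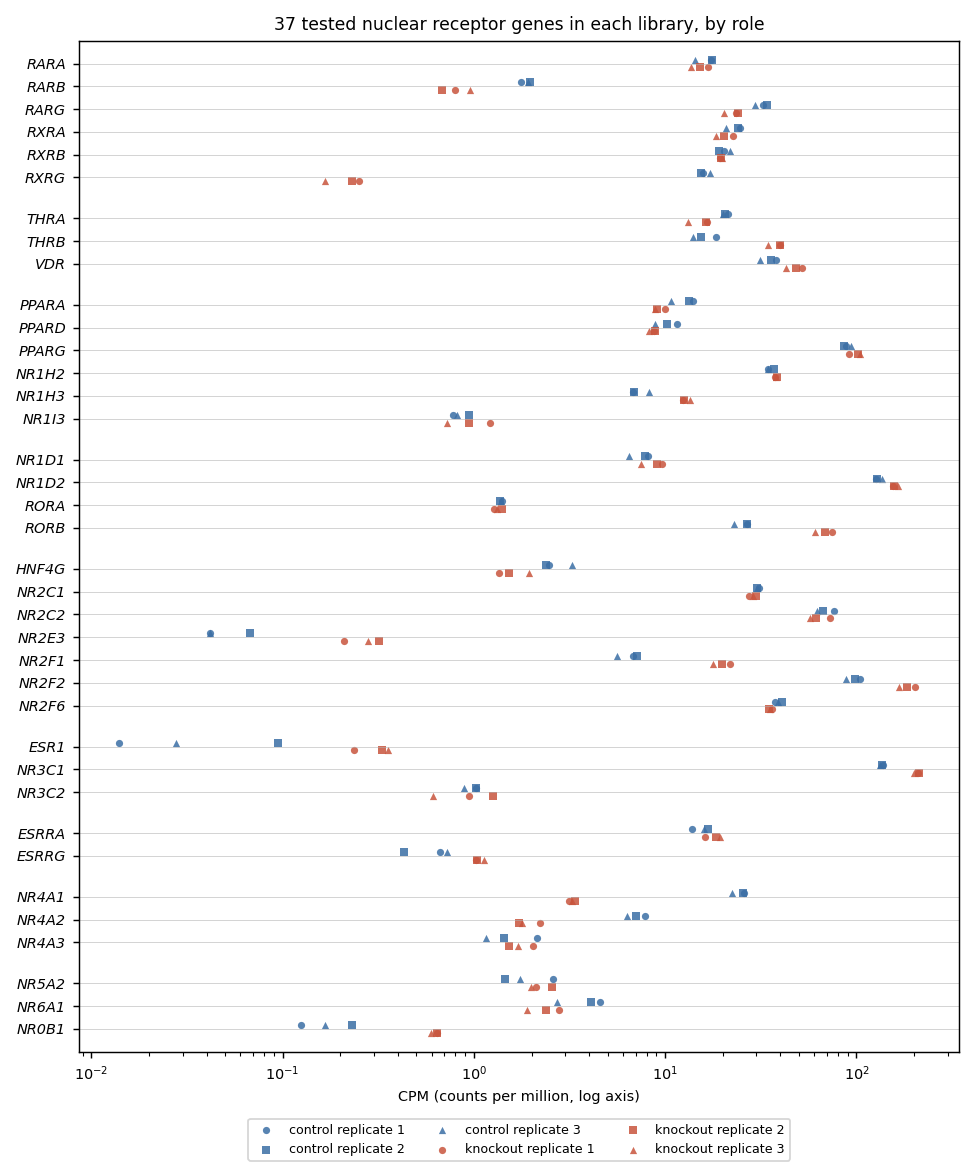
CPM on a log axis of the 37 tested receptor genes, grouped by role, with 1 point per library (blue for control, red for knockout, the marker giving the replicate). RXRG and NR4A1 lie furthest to the left in red relative to blue, while THRB, RORB, NR2F1 and NR2F2 lie to the right in every knockout library.

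The receptors of vitamin A acids moved only downward. RXRG (ENSG00000143171), the retinoid X receptor with the narrowest tissue range, stood at 15.7, 15.3 and 17.1 CPM in control replicates 1 to 3 and at 0.250, 0.230 and 0.166 CPM in knockout replicates 1 to 3. It was thus nearly lost in every knockout library, 74.5-fold lower by the ratio of means (log2 fold change -6.21, SE 0.14, edgeR's adjusted p = 4.40e-08). RARB (ENSG00000077092), the retinoic acid receptor whose own gene is a classical target of the hormone, was the rarest of its kind at 1.77, 1.97 and 1.93 CPM in the controls and 0.792, 0.677 and 0.956 CPM after knockout (log2 fold change -1.22, SE 0.17, edgeR's adjusted p = 7.60e-04). RARG (ENSG00000172819), the retinoic acid receptor best known from skin, stood at 32.5, 34.2 and 29.5 CPM against 23.5, 23.9 and 20.3 CPM (log2 fold change -0.51, SE 0.09, edgeR's adjusted p = 0.00288). For all 3 genes every knockout library lay below every control library.

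The broadly expressed members of the same group did not pass the test. RARA, the receptor found in most tissues, stood at 17.4, 17.6 and 14.3 CPM in the controls and 16.7, 15.2 and 13.7 CPM after knockout, and the groups overlapped (95% interval of the log2 fold change -0.36 to 0.13). RXRA stood at 24.7, 24.1 and 20.7 CPM against 22.5, 20.2 and 18.4 CPM (interval -0.41 to 0.04), and RXRB at 20.2, 19.01 and 21.7 CPM against 19.3, 19.5 and 19.8 CPM (interval -0.22 to 0.11). These intervals, like those below, come from the edgeR fit and are not adjusted for the number of genes. The SLC39A7 gene overlaps RXRB on the opposite strand over 244 exonic bases, and TOP2B overlaps RARB over 28; whether counting used strand was not given in the sources used here, so reads in such stretches may not be separated.

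Levels of different genes are compared as CPM per kilobase of annotated exon. On this scale RXRG made up 45.0% ± 1.02 (SD, n = 3) of the summed retinoid X receptor transcripts in control libraries, the largest share of the 3 on this scale but the smallest without division by exon length, and 1.15% ± 0.216 in knockout libraries. The share of RXRB was 39.2% ± 1.09 in control and 72.3% ± 2.38 in knockout libraries, and that of RXRA 15.8% ± 1.96 and 26.6% ± 2.18. The summed level was 13.2 ± 0.509 CPM per kb in control and 6.90 ± 0.141 CPM per kb in knockout libraries. Among retinoic acid receptors RARG held 61.1% ± 0.747 in control and 56.2% ± 1.49 in knockout libraries, and RARA 33.9% ± 1.29 and 41.0% ± 1.28. Shares were not tested.

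**Figure D2:**
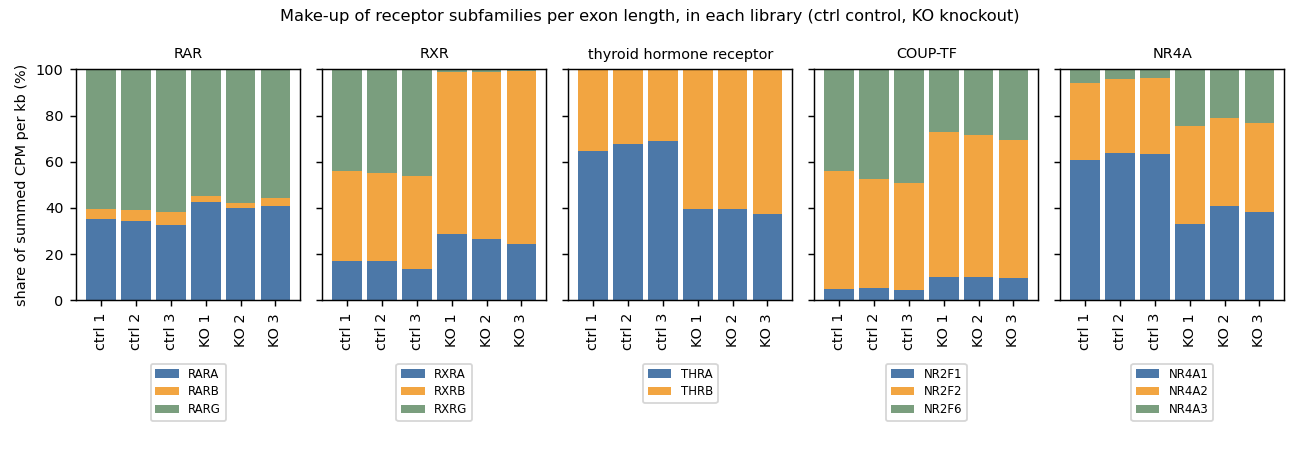
Share of each isotype in the summed CPM per kb of its subfamily, 1 bar per library, for retinoic acid, retinoid X, thyroid hormone, COUP-TF and NR4A receptors. The RXRG segment falls from 45.0% to 1.15% on average, and the THRB segment grows from 32.8% to 61.1%.

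The thyroid hormone receptors moved in opposite directions. THRB (ENSG00000151090), the isotype known for feedback on the pituitary and for liver responses, stood at 18.3, 15.5 and 14.05 CPM in control replicates 1 to 3 and at 39.99, 39.6 and 34.6 CPM in knockout replicates 1 to 3 (log2 fold change 1.25, SE 0.11, edgeR's adjusted p = 4.66e-05). THRA (ENSG00000126351), the isotype of heart, bone and brain, stood at 21.4, 20.7 and 19.97 CPM against 16.6, 16.4 and 13.2 CPM (log2 fold change -0.43, SE 0.10, edgeR's adjusted p = 0.0112). The groups did not overlap for either gene. Per kilobase, THRA held 67.2% ± 2.26 of the pair in control libraries and 38.9% ± 1.13 in knockout libraries, so the more abundant isotype was THRA in every control library and THRB in every knockout library. VDR (ENSG00000111424), the vitamin D receptor, rose from 37.9, 35.6 and 31.3 CPM to 52.05, 48.1 and 42.9 CPM (log2 fold change 0.45, SE 0.10, edgeR's adjusted p = 0.00850), again without overlap.

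Members of these groups lie side by side on 2 chromosomes. On chromosome 17 of GRCh38, THRA (40058290 to 40093867, plus strand) runs into NR1D1 (40092787 to 40100725, minus strand), with RARA further along (40309192 to 40357643). On chromosome 3 the corresponding paralogs are NR1D2 (23945260 to 23980618), THRB (24117153 to 24495756) and RARB (25174332 to 25597932). In the chromosome 17 trio THRA fell while NR1D1 and RARA did not pass, and in the chromosome 3 trio NR1D2 and THRB rose and RARB fell. THRA and NR1D1 share 263 exonic bases on opposite strands, 3.78% of the THRA exons and 9.49% of those of NR1D1.

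The NR4A receptors are immediate early genes, induced within minutes to hours by growth factors, cyclic AMP and stress, and their products act without a known hormone. NR4A1 (ENSG00000123358; chromosome 12, 52022832 to 52059507), also known as NUR77, stood at 25.8, 25.6 and 22.3 CPM in control replicates 1 to 3 and at 3.15, 3.38 and 3.25 CPM in knockout replicates 1 to 3. This was 7.53-fold lower by the ratio of means, the largest fall after that of RXRG (log2 fold change -2.91, SE 0.09, edgeR's adjusted p = 1.48e-07). NR4A2 (ENSG00000153234), or NURR1, required for dopamine neurons, stood at 7.81, 7.04 and 6.28 CPM against 2.21, 1.71 and 1.79 CPM (log2 fold change -1.89, SE 0.13, edgeR's adjusted p = 1.38e-05). In both genes the knockout libraries lay far below every control library.

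NR4A3, the third member, stood at 2.13, 1.44 and 1.15 CPM in the controls and 2.04, 1.52 and 1.71 CPM after knockout and did not pass (log2 fold change 0.16, 95% interval -0.38 to 0.69). The difference between its change and those of NR4A1 and NR4A2 was not tested as such, but its interval did not reach the intervals of NR4A1 (-3.11 to -2.71) and NR4A2 (-2.20 to -1.58). The summed NR4A level fell from 5.39 ± 0.521 to 1.21 ± 0.0945 CPM per kb. NR4A1 held 62.5% ± 1.73 of it in control and 37.3% ± 4.03 in knockout libraries, and NR4A3 4.56% ± 1.06 and 23.01% ± 1.74.

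The COUP-TF receptors, orphans that act in neural crest, vessel and heart development, were among the increases. NR2F1 (ENSG00000175745), or COUP-TF1, stood at 6.80, 7.15 and 5.62 CPM in the controls and 21.9, 19.8 and 17.7 CPM after knockout, 3.04-fold higher by the ratio of means (log2 fold change 1.60, SE 0.12, edgeR's adjusted p = 1.55e-05). NR2F2 (ENSG00000185551), or COUP-TF2, stood at 105, 98.02 and 88.4 CPM against 202, 184 and 167 CPM (log2 fold change 0.93, SE 0.09, edgeR's adjusted p = 9.41e-05). Neither gene's groups overlapped. NR2F1-AS1, which overlaps NR2F1 on the opposite strand over 158 exonic bases (3.66% of the NR2F1 exons), went from 2.37 ± 0.225 to 7.22 ± 0.196 CPM, and reads in the shared stretch may not be separated.

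NR2F6, the more distant COUP-TF relative, stood at 37.4, 40.7 and 38.9 CPM in the controls and 36.00, 34.97 and 35.1 CPM after knockout. The groups did not overlap, yet the gene did not pass (log2 fold change -0.14, edgeR's adjusted p = 0.123). The summed level of the 3 genes rose from 31.1 ± 1.38 to 46.4 ± 3.32 CPM per kb, with NR2F2 at 48.2% ± 2.44 of it in control and 61.5% ± 1.37 in knockout libraries. The testicular receptors, repressors of wide expression, did not pass either: NR2C1 stood at 30.8, 30.3 and 30.1 CPM against 27.6, 29.7 and 28.7 CPM. NR2C2 stood at 76.04, 67.2 and 62.2 CPM against 73.1, 61.8 and 57.03 CPM.

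Among the rarer genes of this group, HNF4G, an HNF4 receptor of gut and kidney, stood at 2.46, 2.39 and 3.24 CPM in the controls and 1.35, 1.53 and 1.94 CPM after knockout (log2 fold change -0.74, edgeR's adjusted p = 0.0164). Its call was lost without knockout replicate 2 (edgeR's adjusted p = 0.0680, within a range of 4.31e-05 to 0.0680 over 13 alternatives). NR2E3, a receptor of rod photoreceptors, had 3, 5 and 3 reads in control and 15, 25 and 22 reads in knockout libraries. The ratio of summed counts was 5.38 (95% counting interval 2.81 to 11.3), from a level at the floor of 3 counts, and it passed the filter on low counts only through the knockout libraries. HNF4A and NR2E1 had too few counts to be tested.

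The glucocorticoid receptor was the most abundant steroid receptor and rose. NR3C1 (ENSG00000113580), which binds cortisol, stood at 138, 136 and 132 CPM in control replicates 1 to 3 and at 209, 213 and 199 CPM in knockout replicates 1 to 3, 1.53-fold higher by the ratio of means and without overlap (log2 fold change 0.62, SE 0.06, edgeR's adjusted p = 6.89e-05). NR3C2, the mineralocorticoid receptor, stood at 1.03, 1.02 and 0.887 CPM against 0.945, 1.26 and 0.612 CPM and did not pass (95% interval -0.66 to 0.54). ESR1, the estrogen receptor alpha, had 1, 7 and 2 reads in control and 17, 26 and 28 reads in knockout libraries. The ratio of summed counts was 6.77 (95% counting interval 3.48 to 14.7, for counting error only), from a control level around the floor. The gene was tested only because the knockout libraries passed the filter, so its call is no support for a change. In the knockout libraries ESR1 reached 0.236 to 0.357 CPM, far under the level of NR3C1 also per kilobase (0.0223 against 22.6 CPM per kb).

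ESR2 and PGR, the receptors of estrogen and progesterone, were not tested: ESR2 had 1 to 16 reads per library and PGR 0 or 1. The estrogen-related receptors need no estrogen and regulate mitochondrial genes. ESRRA stood at 13.8, 16.7 and 15.9 CPM in the controls and 16.2, 18.5 and 19.3 CPM after knockout and did not pass (edgeR's adjusted p = 0.138); TRMT112, at 264 CPM in the control mean, overlaps 284 of its exonic bases on the opposite strand. ESRRG stood at 0.667, 0.431 and 0.721 CPM against 1.03, 1.03 and 1.13 CPM and passed (log2 fold change 0.81, edgeR's adjusted p = 0.0252). That call was lost in 3 of 13 alternatives, without control replicate 2 and without knockout replicate 2 or 3 (adjusted p 0.00319 to 0.0771 over the 13). ESRRB had at most 2 reads in a library.

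**Figure D3:**
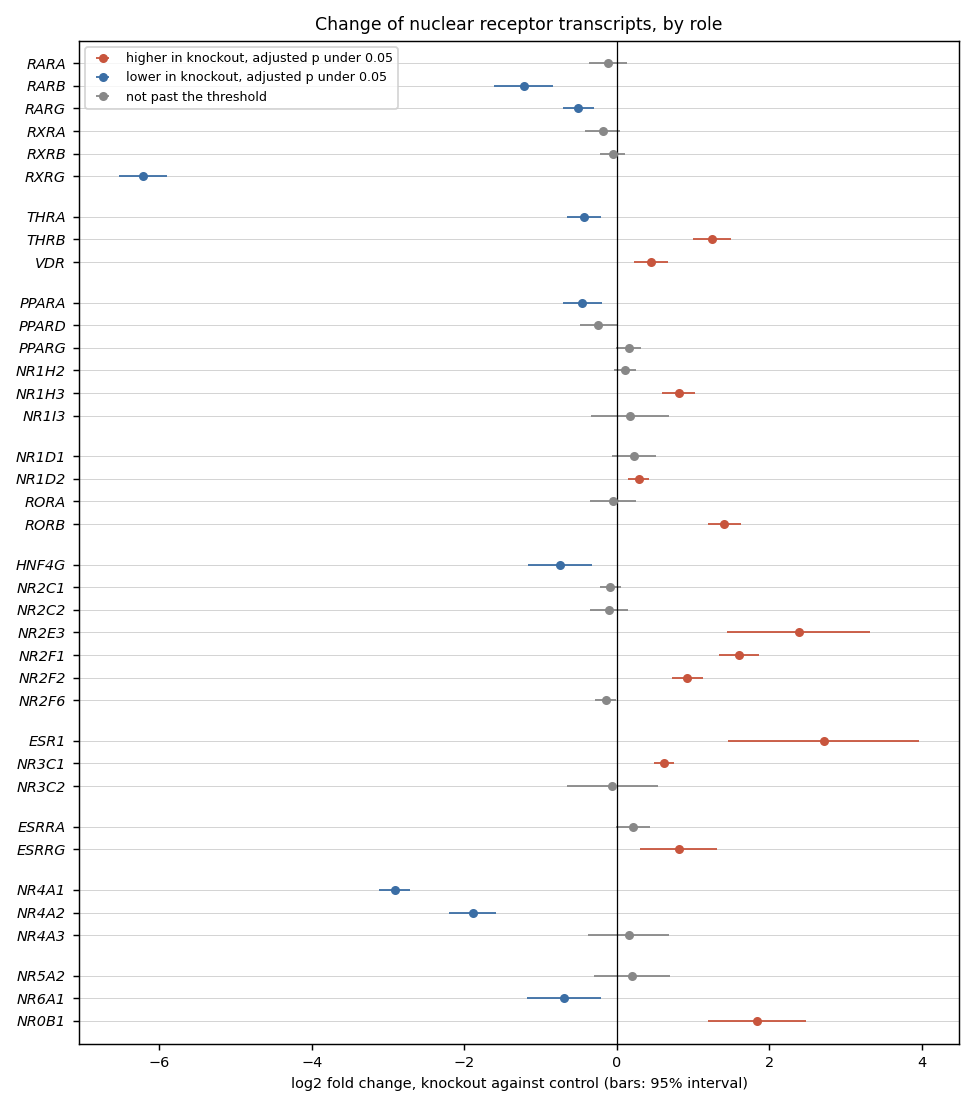
Log2 fold change of knockout against control for the 37 tested receptors, grouped by role, with 95% intervals of the edgeR fit that are not adjusted for the number of genes. RXRG at -6.21 and NR4A1 at -2.91 lie furthest below 0, and NR2E3 and ESR1, with the widest intervals, furthest above it. NR2E3 and ESR1 were tested only through the knockout libraries and had to differ to be tested.

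Of the 6 tested sensors of lipids and drugs, 1 oxysterol receptor rose, PPARA fell and 4 did not pass. NR1H3 (ENSG00000025434), or LXR alpha, stood at 6.78, 6.90 and 8.21 CPM in the controls and 12.4, 12.5 and 13.5 CPM after knockout (log2 fold change 0.81, SE 0.09, edgeR's adjusted p = 2.83e-04). NR1H2, or LXR beta, stood at 34.3, 37.1 and 34.3 CPM against 37.5, 38.6 and 37.8 CPM and did not pass, although its groups did not overlap (95% interval -0.03 to 0.25). Per kilobase NR1H2 held 85.3% ± 1.67 of the pair in control and 78.1% ± 0.879 in knockout libraries, so LXR beta remained the main isotype in every library. ACP2 overlaps NR1H3 on the opposite strand over 189 exonic bases and stood at 18.98 CPM in the controls and 18.3 CPM after knockout on average.

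The peroxisome proliferator-activated receptors bind fatty acids. PPARG, the adipocyte regulator that many melanomas also express, was the most abundant of them at 87.9, 85.7 and 93.96 CPM in the controls and 91.7, 102 and 105 CPM after knockout, and did not pass (95% interval -0.01 to 0.32). PPARA, which drives fatty acid oxidation, stood at 14.1, 13.3 and 10.7 CPM against 9.92, 9.08 and 8.84 CPM and fell (log2 fold change -0.45, edgeR's adjusted p = 0.0161). Its call was lost in 4 of 13 alternatives, without control replicate 1 or 2 and without knockout replicate 2 or 3 (adjusted p 4.62e-06 to 0.0753 over the 13). PPARD, the most widely expressed isotype, stood at 11.5, 10.2 and 8.82 CPM against 8.78, 8.81 and 8.19 CPM and did not pass (edgeR's adjusted p = 0.131). It passed without control replicate 3 (edgeR's adjusted p = 0.0248) and with the replicate number as a block (edgeR's adjusted p = 0.00733). Over 13 alternatives its adjusted p was 0.00733 to 0.409. The sensors of drugs and bile acids were scarce: NR1I3 stood at 0.727 to 1.21 CPM without passing, and NR1I2 and NR1H4 had at most 2 and 16 reads in a library. TOMM40L overlaps NR1I3 on the opposite strand over 661 exonic bases, 20% of the NR1I3 exons. It averaged 23.9 CPM in the controls and 28.0 CPM after knockout (edgeR's adjusted p = 0.0493). NR1I3 reads in that stretch may not be separated from those of TOMM40L.

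The receptors tied to the circadian clock rose where they changed. NR1D2 (ENSG00000174738), or REV-ERB beta, a repressor of the clock gene BMAL1, stood at 126, 128 and 136 CPM in the controls and 156, 157 and 165 CPM after knockout (log2 fold change 0.29, SE 0.06, edgeR's adjusted p = 0.00677). RORB (ENSG00000198963), an activator of retina and brain that binds the same DNA element, stood at 26.8, 26.8 and 22.9 CPM against 74.1, 68.1 and 60.98 CPM, 2.66-fold higher by the ratio of means (log2 fold change 1.41, SE 0.10, edgeR's adjusted p = 9.88e-06). In neither gene did the groups overlap. NR1D1, or REV-ERB alpha, stood at 8.12, 7.79 and 6.45 CPM against 9.66, 9.04 and 7.46 CPM and did not pass (95% interval -0.06 to 0.51). RORA, elsewhere the more widespread isotype, was only at 1.28 to 1.40 CPM without passing, and RORB made up 97.02% ± 0.273 of the 2 ROR genes per kilobase in control and 98.9% ± 0.129 in knockout libraries.

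Of the remaining receptors, NR0B1, or DAX1, which lacks the zinc finger domain and represses other receptors in adrenal and gonad, had 9, 17 and 12 reads in control and 46, 50 and 47 reads in knockout libraries. The ratio of summed counts was 3.59 (95% counting interval 2.50 to 5.28), the knockout level was 0.599 to 0.639 CPM, and the gene too passed the filter on low counts only through the knockout libraries. NR6A1, the germ cell nuclear factor, stood at 4.57, 4.09 and 2.73 CPM in the controls and 2.79, 2.38 and 1.90 CPM after knockout. It passed with overlapping groups (log2 fold change -0.69, edgeR's adjusted p = 0.0421), and the call was lost in 7 of 13 alternatives (adjusted p 1.60e-05 to 0.135): scaling by total counts, at least 1 CPM in 3 libraries, limma-voom, and without control replicate 1 or 2 or knockout replicate 2 or 3. NR5A2, a receptor of liver and early embryo, ranged from 1.46 to 2.59 CPM without passing, NR5A1, the regulator of steroid synthesis, had at most 1 read in a library, and NR0B2 had none, which allows up to 3 counts. The 9 receptors that were not tested had at most 24 reads in a library (NR2E1 in control replicate 3) and are not shown to be absent.

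Ordered by level per kilobase in control libraries, the 6 most abundant receptors were NR1D2 at 22.4, PPARG at 19.7, NR2F2 at 15.02, NR3C1 at 14.7, NR2F6 at 14.6 and NR1H2 at 9.39 CPM per kb. In knockout libraries the same 6 led, with NR2F2 first at 28.5, NR1D2 at 27.4, NR3C1 at 22.6 and PPARG at 21.9 CPM per kb. The control levels of NR2F2, NR3C1 and NR2F6 lay within their spread of one another (SD 1.26, 0.315 and 0.615 CPM per kb). RXRG moved from rank 9 to rank 35 of 46 and NR4A1 from 15 to 24, while RORB moved from 18 to 8, NR2F1 from 23 to 12 and THRB from 24 to 15. Exon lengths are the union over annotated transcripts and need not be those of the transcripts in use.

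Coregulators are the proteins that receptors recruit. Of 33 tested coregulators, 2 rose and 5 fell, with a median log2 fold change of -0.13; 21.2% passed against 28.0% of all genes, and the number that fell was 2 without control replicate 1 or 2 or knockout replicate 2 or 3 and 8 without control replicate 3. PPARGC1A, the PGC-1 alpha coactivator of mitochondrial genes, rose from 0.490 ± 0.0648 to 4.27 ± 0.306 CPM (edgeR's adjusted p = 1.17e-06), and NCOA7, an estrogen receptor coactivator, from 58.1 ± 0.425 to 82.9 ± 2.62 CPM (adjusted p = 1.91e-04). HR, the hairless corepressor of thyroid hormone and vitamin D receptors, fell from 60.6 ± 5.75 to 19.4 ± 1.15 CPM (edgeR's adjusted p = 2.45e-06), and the repressor gene BCL6 fell from 8.89 ± 1.30 to 5.04 ± 0.757 CPM. SIN3A also passed, from 121 ± 8.27 to 98.8 ± 7.29 CPM, and lost its call in 5 of 13 alternatives. Of 19 tested chaperones and cochaperones of steroid receptors 1 rose and 5 fell, by small amounts (median -0.12): HSP90AB1 from 3802 ± 67.9 to 3324 ± 48.9 CPM, FKBP4 from 229 ± 6.65 to 195 ± 1.25 CPM and PPP5C from 92.6 ± 1.23 to 75.2 ± 3.97 CPM, with STUB1 up from 12.4 ± 1.27 to 16.6 ± 1.20 CPM. Without 1 library the number that fell was between 1 and 3, for each of the 6 libraries, 3 with DESeq2 size factors or without the filter and 2 with total counts, and the calls of HSP90AB1, FKBP4 and STUB1 were lost in 6, 2 and 1 of 13 alternatives; HSP90AB1 has close copies with which reads may be shared.

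Genes known to respond to receptor hormones were taken from textbook lists, and their counts stand against the 14.0% of all genes that passed in each direction. Of 14 tested genes of retinoid handling and response, 5 rose and 4 fell (median 0.23). The fall included LRAT, which makes the stored retinyl esters, and DHRS3, which reduces retinal to retinol, from 22.4 ± 0.568 to 6.57 ± 0.628 CPM and from 56.03 ± 7.76 to 21.2 ± 2.09 CPM, and ALDH1A3, which makes retinoic acid, from 260.1 ± 14.3 to 138 ± 9.95 CPM. The retinol carrier STRA6 rose from 8.29 ± 0.946 to 13.4 ± 1.43 CPM and TGM2, a transglutaminase induced by retinoic acid, from 143 ± 9.89 to 222 ± 17.01 CPM. Of 12 tested genes of the vitamin D response 6 were higher and 3 fell (median 0.25). Of the 6, 4 (CYP24A1 and THBD among them) reached the filter only through the knockout libraries and had to differ to be tested, and 2 did not depend on it in this way. Where at least 1 CPM in 3 libraries was required, 3 rose. CYP24A1 was among these 3 and met that filter too only through the knockout libraries, at 1.37 to 1.89 CPM. CYP24A1, the enzyme that degrades vitamin D and its most sensitive target, had 1, 4 and 2 reads in control and 129, 107 and 148 reads in knockout libraries, and THBD 2, 2 and 0 against 68, 60 and 54 reads. SPP1, the osteopontin gene, rose from 11.5 ± 1.76 to 44.97 ± 5.39 CPM, whereas IGFBP3 fell from 48.2 ± 1.45 to 12.1 ± 1.49 CPM, CBS from 11.3 ± 0.427 to 6.38 ± 0.125 CPM and LRP5 from 31.6 ± 3.19 to 24.6 ± 1.70 CPM, the last losing its call in 4 of 13 alternatives.

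Lipid sensor targets were divided. Of 14 tested LXR targets 2 rose and 6 fell (median -0.35), opposite in sign to NR1H3 itself. The fall included SREBF1, the regulator of fatty acid synthesis, from 47.5 ± 3.02 to 27.5 ± 2.73 CPM, the desaturase gene SCD from 423 ± 40.6 to 242 ± 15.8 CPM and the phospholipid carrier PLTP from 24.03 ± 1.24 to 15.1 ± 0.614 CPM, while SMPDL3A, a secreted phosphodiesterase, rose from 6.07 ± 0.0861 to 8.06 ± 0.474 CPM. Of 28 tested PPAR targets 8 were higher and 6 lower (median -0.04), of which 2 and 1 reached the filter only through the group where they were high; the number lower was 3 without control replicate 1 or 2 or knockout replicate 2 or 3. PDK4, which diverts glucose from oxidation, rose from 24.5 ± 0.457 to 55.8 ± 4.39 CPM, ANGPTL4 from 1.94 ± 0.339 to 3.84 ± 0.284 CPM and CREB3L3 from 0.262 ± 0.111 to 1.55 ± 0.183 CPM. LPL, lipoprotein lipase, fell from 28.1 ± 0.619 to 11.6 ± 0.109 CPM, ACSL3, which activates fatty acids, from 322 ± 13.1 to 144 ± 4.47 CPM, and ECH1 from 26.8 ± 1.15 to 19.5 ± 1.26 CPM.

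The glucocorticoid response list changed widely without a common direction, 11 of 26 tested genes rising and 8 falling (median 0.15). SGK1, a kinase of salt transport, rose from 118 ± 4.49 to 202 ± 6.48 CPM, ERRFI1, an inhibitor of EGFR, from 264 ± 2.41 to 404 ± 1.32 CPM and CRISPLD2 from 2.92 ± 0.0815 to 6.27 ± 0.695 CPM. KLF9, also a target of thyroid hormone, fell from 105 ± 10.05 to 20.3 ± 1.64 CPM, DDIT4, an inhibitor of mTOR, from 33.5 ± 3.00 to 15.04 ± 1.17 CPM, and CDKN1C from 10.7 ± 0.456 to 0.957 ± 0.0225 CPM. In the core clock list 5 of 19 rose and 3 fell (median -0.06), and 3 rose without control replicate 2 or knockout replicate 2, while 5 fell without control replicate 3. BMAL2 rose from 21.00 ± 1.44 to 54.7 ± 4.61 CPM, NFIL3, a repressor that shares sites with the activators DBP and TEF, from 10.4 ± 0.633 to 15.6 ± 0.287 CPM and BHLHE40 from 18.2 ± 1.96 to 25.7 ± 2.26 CPM. TEF fell from 7.98 ± 0.646 to 4.61 ± 0.415 CPM, PER1 from 8.51 ± 0.628 to 5.54 ± 0.535 CPM and CSNK1E from 37.8 ± 2.46 to 30.3 ± 2.98 CPM, the last losing its call in 5 of 13 alternatives.

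Genes of mitochondrial oxidation under estrogen-related receptors had the smallest share of calls among the 9 lists: of 25 tested, PDK4 rose, MDH2 fell from 318 ± 9.97 to 278 ± 3.46 CPM and 23 did not pass (median 0.04). This was 8% of the list against 28.0% of all genes, and MDH2 lost its call in 8 of 13 alternatives. Every list gene given here as rising or falling passed edgeR's quasi-likelihood test at an adjusted p of 0.05, and its control and knockout libraries did not overlap. The lists share some genes (PDK4, ANGPTL4, PER1, BHLHE40, BCL6 and FKBP5 among them), respond to many regulators besides these receptors, and were written with earlier results of these data known, so their counts say nothing of receptor activity.

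**Figure D4:**
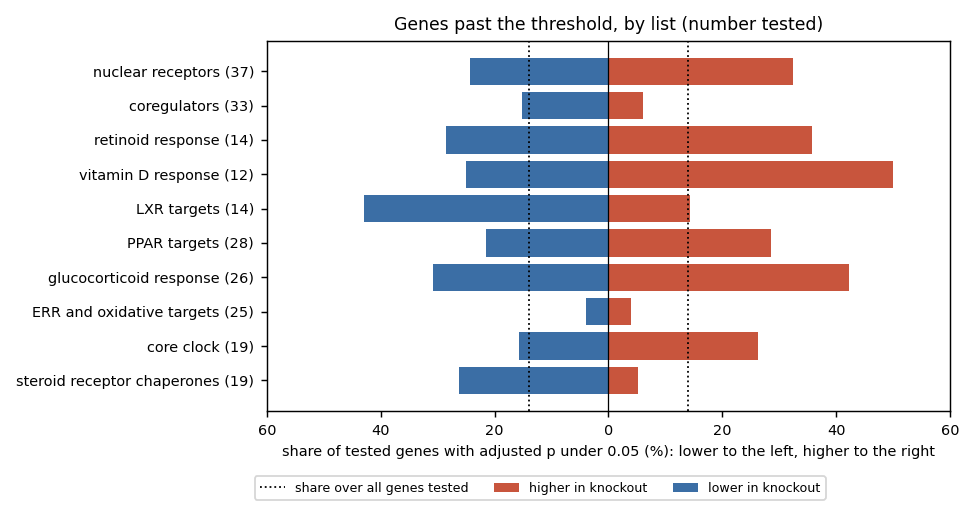
Share of tested genes past an adjusted p of 0.05, lower to the left and higher to the right, for the receptors and the 9 lists, with the number tested in brackets and dotted lines at the 14.0% of all genes in each direction. The vitamin D list (6 of 12, 4 of them tested only through the knockout libraries) and the glucocorticoid list reach furthest to the right, the LXR list furthest to the left, and the oxidative list stays inside both lines.

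Markers of other cell types were read in the same libraries, and their part in the receptor changes was not tested. Their counts stand against the 14.0% of all genes tested that passed in each direction, and most lists hold few tested genes. Of 8 fibroblast markers 5 rose and 1 fell, and their summed level was 16.4 to 19.4 CPM in the controls and 25.5 to 27.6 CPM after knockout. Of 6 endothelial markers, 4 of them tested, 2 rose and 1 fell (summed 6.84 to 8.88 and 3.46 to 4.50 CPM), and of 6 keratinocyte markers, 3 tested, 1 rose and 1 fell (summed 48.2 to 64.2 and 52.2 to 66.7 CPM, mostly KRT10), with KRT1 at 0 in every library. Of 6 leukocyte markers PTPRC averaged 0.0634 CPM in the controls and 0.0259 CPM after knockout, and of the 2 tested LYZ fell and made up most of the summed 10.8 to 14.3 and 1.52 to 2.28 CPM. The 5 hepatocyte markers, of which 1 was tested and fell, summed to 0.243 to 0.569 CPM in the controls and 0.139 to 0.294 CPM after knockout.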

How the data were processed

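RNA-seq libraries of A375 cells, 3 control and 3 SOX10 knockout, were grouped by their labels. The values are raw gene-level counts as deposited by the authors; HISAT2, HTSeq and the build hg38 are named per the submitters' processing notes, while versions, annotation release and strand setting were not given in the sources used here. Of 58721 identifiers, 58676 were found in GENCODE release 29, which gave coordinates and exon lengths, and 58207 had a symbol. Totals of 70075002 to 78148565 counts limit precision mainly for genes under 1 CPM; counting intervals and floors cover counting error only.

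Differences were tested by edgeR 4.0.16 under R 4.3.3 (filterByExpr, TMM, two-sided quasi-likelihood test, no covariates, Benjamini-Hochberg adjustment over 19263 genes, threshold 0.05). CPM used TMM-scaled library sizes, and values with ± are means and SD of n = 3 libraries. The procedure was tested on simulated counts drawn independently for each library. Such counts hold no effect shared by same-numbered libraries, so the simulation did not check the main test for that case. Alternatives were DESeq2 1.42.0, limma-voom (limma 3.58.1), 2 other scalings, 2 other filters, the replicate number as a block, and leaving out each library, 13 fits in all. A receptor was given library by library if it passed or averaged at least 5 CPM, others by level; of each list the 3 members with the smallest p in each direction were named, except items that are not reported here. RNA of 46 receptors was analysed; other members of the family are not analysed here. Receptors, lists and tests were chosen with earlier results of these data known. Overlaps used bedtools 2.31.1, tables Python 3.11.15 with pandas 2.3.3 and scipy 1.17.1, and plots matplotlib 3.10.9. No replicates of a group agreed within sampling noise.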

Additional observations from a re-analysis of the deposited data

How the results depend on the processing

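All 21 receptors that passed kept their direction in each of the 13 alternatives that tested them (NR2E3, ESR1 and NR0B1 were left out at 1 CPM in 3 libraries), and 17 kept their call; PPARA, HNF4G, ESRRG and NR6A1 lost theirs in the settings given above. Leaving out each library in turn, 11 to 12 receptors were higher and 6 to 11 lower; over all genes 1986 to 2935 were higher and 1794 to 2958 lower, the fewest lower without knockout replicate 2, and the log2 fold change of SOX10 was -2.40 to -2.30. Among receptors that did not pass, the log2 fold change without 1 library ranged from -0.011 to 0.34 for NR1I3 (below 0 without knockout replicate 1), from -0.33 to 0.18 for NR3C2 (above 0 without knockout replicate 3) and from -0.024 to 0.44 for NR4A3 (below 0 without control replicate 3); the cause was not tested.

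With the replicate number as a block, 4637 genes were higher and 5176 lower, and among receptors 16 were higher and 13 lower, 8 more than without the block. These 8 were PPARG, NR1D1, NR1H2 and ESRRA, which were higher, and RXRA, PPARD, NR2C2 and NR2F6, which were lower. Their adjusted p in edgeR's test with the block ran from 3.84e-04 (PPARG) to 0.0253 (NR1H2). In that fit 50.9% of all genes passed, and 4 coregulators were higher and 21 lower (75.8% of the list, above the share of all genes and not below it). The block left 2 chaperones higher and 12 lower (73.7%), and 6 oxidative genes higher and 3 lower (36%). PPAR targets were 10 higher and 10 lower (71.4%), and core clock genes 6 higher and 7 lower (68.4%). Deviations from the group means correlated across genes at 0.30, -0.0044 and 0.31 between same-numbered libraries 1, 2 and 3. The value was -0.33 between control 3 and knockout 1 and -0.28 between control 1 and knockout 3. Libraries 1 and 3 thus correlated best with their own number, and those numbered 2 did not. The labels do not state a pairing, so the main test used no block and did not model an effect shared by same-numbered libraries.

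Without division by exon length RXRG held 26.96% of the retinoid X receptor sum in control and 0.534% in knockout libraries, THRB 43.4% and 71.3% of the thyroid hormone receptors, NR4A1 74.1% and 47.3% of the NR4A receptors, and NR2F1 8.26% of the COUP-TF receptors in knockout libraries, since the genes differ in exon length; RXRG then had the smallest share of its subfamily in control libraries, below RXRA at 38.9% and RXRB at 34.1%. Of the list genes named, 7 lost their call in at least 1 alternative. Depth limits the 15 receptors under 1 CPM.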
